A study of Saccharomyces cerevisiae with 23 samples.

Results

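The 36 genes described here encode the enzymes of yeast glycolysis, of the branches that lead from pyruvate to ethanol, acetate, acetyl-CoA and glycerol, and of gluconeogenesis with the glyoxylate cycle. They were taken as a list of standard gene names, by the function of the enzymes, and matched to the gene names of the array's probes. All 36 were found among the 6256 probes of the array, and all 36 were among the 5606 genes that passed the filter on dim probes. Pyruvate decarboxylases are not in the list. Because several of the steps have 2 or more genes for one reaction, the paralogs were also compared with each other over all conditions.

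The cultures were of a haploid yeast strain, BY4741a with pdr5Δ, a deletion that removes a plasma membrane drug efflux pump and that every group carried, the pooled reference included. Groups were a statin (5 µg/mL) with 1 mM CuSO4 (3 biological samples), the statin with 2 mM ZnSO4 (2 samples, numbered 2 and 3; replicate 1 was not analysed here), the statin alone (3 samples), CuSO4 alone (3 samples), ZnSO4 alone (3 samples) and untreated cultures (3 samples). The medium of all 6 groups was synthetic complete with 2% glucose, to which 0.25 mM EDTA, a metal chelator, and 0.1% DMSO were added in each. The labels do not name the statin, an inhibitor of HMG-CoA reductase. Statin cultures also differed from the others in density: their preculture started at an OD600 of 0.09, against 0.01 without statin, and they were harvested at about 0.4, against 0.8. An effect of the statin and an effect of these densities cannot be told apart here. From its title, the study asked how copper and zinc act on the effect of statins.

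Glycolysis splits glucose into pyruvate in a chain of cytosolic reactions, and in glucose medium budding yeast ferments most of the pyruvate to ethanol even when oxygen is present. Many of the enzymes exist as paralogs that differ in when they are made: one is typical of growth on glucose, and another is repressed by glucose and appears on ethanol or under stress. Acetaldehyde that is not reduced to ethanol is oxidised to acetate and joined to coenzyme A in the cytosol, and this acetyl-CoA is the starting material of the mevalonate pathway, in which the target of statins lies.

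The measurements were log2 ratios of a sample over one reference pooled from all 6 conditions, from 2-colour arrays with 1 probe per gene in 2 spots. Each value below is such a ratio or a difference of group means of it, and ratios of different genes are compared only in how they change. Replicates of one number were scanned together. The 7 arrays of the first scan had 98.4 to 98.8% of gene spots well above background, the 8 of the second 95.7 to 97.4%, and the 8 of the third 77.1 to 89.9%. PDR5 was well above background on 0 of 23 arrays. STE6 and STE2, genes of haploid a cells, reached signal percentiles of 55.8 to 73.9 and 34.5 to 62.3 among all probes. The 3 other a-cell genes (MFA1, MFA2 and BAR1) lay between 13.7 and 39.8, in part within the range of the alpha-cell genes STE3 and SAG1 (18.8 to 29.7), while MF(ALPHA)1 and MF(ALPHA)2 were at 18.5 or lower. Over all tested genes, replicates correlated at r = 0.737 to 0.915 in 5 of the groups. In the group with statin and CuSO4 they correlated at 0.273 to 0.763, and replicate 2 of that group stood apart. Results without that sample are therefore given where a call was gained, and for some of the other members. Of the members, 31 were well above background in both spots on all 23 arrays. ADH2, GPD2, FBP1, PCK1 and MLS1 were not, although none of them was below background on every array of a group. No spot was saturated. No probe sequences were used here, so signal shared between near-identical paralogs, such as TDH2 with TDH3, ENO1 with ENO2 or ADH1 with ADH2, was not tested.

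Most of the enzymes varied with the conditions, in different directions. A difference among the 6 groups passed the threshold (limma, adjusted p under 0.05) for 29 of the 36 members, or 80.6%, against 68.4% of all tested genes. PFK2, ENO1, ADH3, ACS1, GPD2, GPP2 and ICL1 did not pass. The group means of a member spanned a median of 0.86 on the log2 scale, against 0.61 over all tested genes. The widest spans were those of ADH5 (2.64), ALD4 (2.14), ALD6 (2.12), ALD5 (1.85), ALD3 (1.77), HXK1 (1.74) and GPP1 (1.71). The highest mean lay in CuSO4 cultures for 14 members, in untreated cultures for 10 and in statin cultures for 7.

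**Figure D1:**
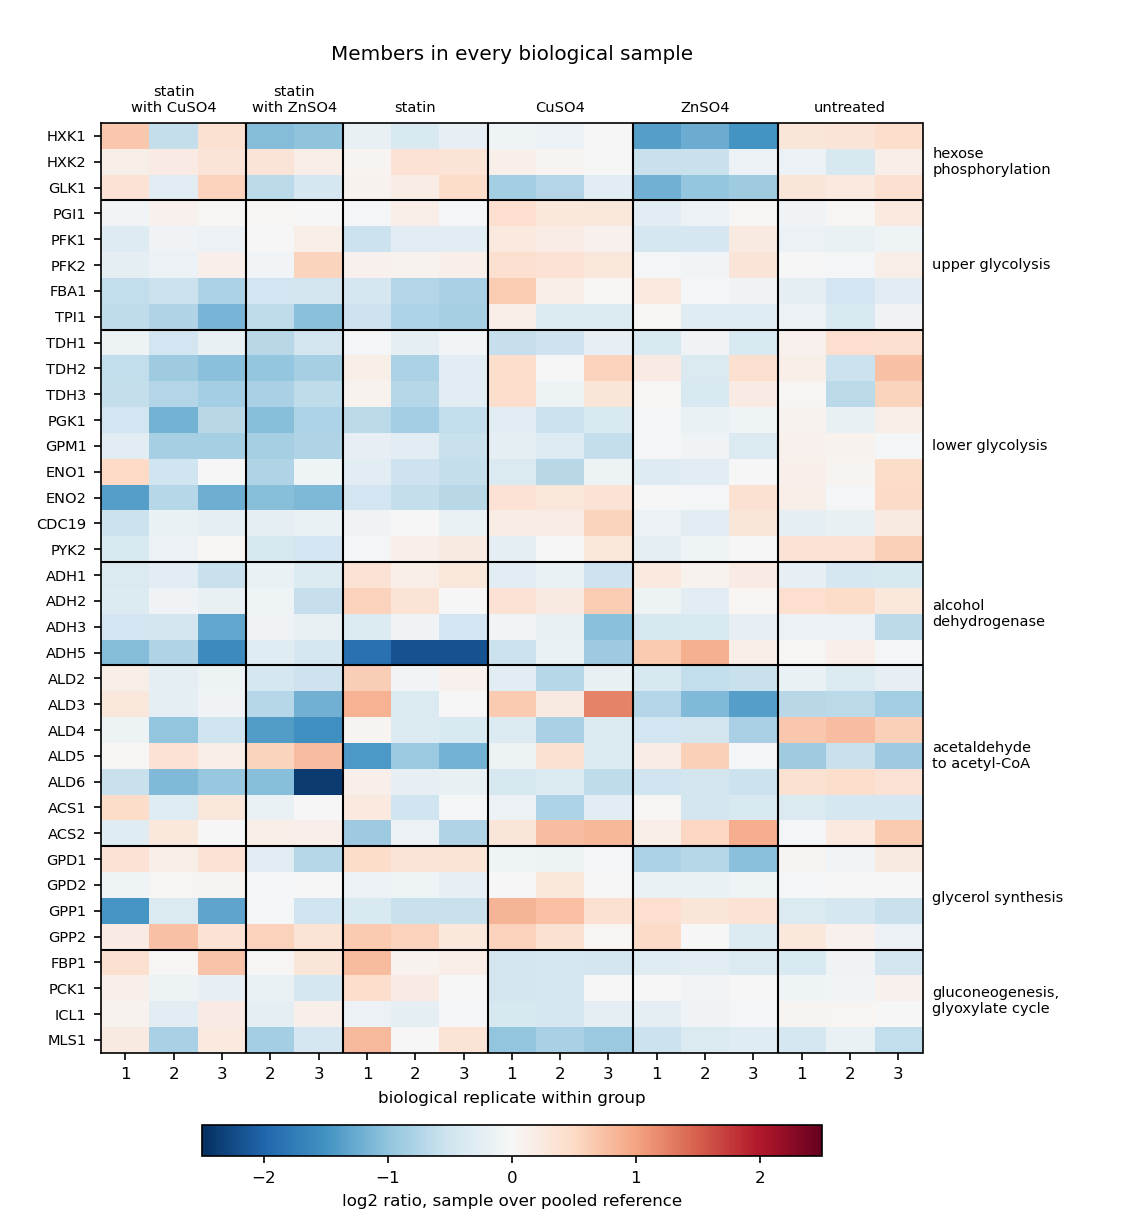
Each column is 1 of the 17 biological samples and each row 1 of the 36 members, coloured by the log2 ratio of the sample over the pooled reference (red higher, blue lower). ADH5 was lowest in the 3 statin samples, between -1.86 and -2.19, and ALD6 was lowest in replicate 3 of statin with ZnSO4, at -2.40.

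The counts of called members followed those of the array as a whole in some comparisons and exceeded them in others. In statin against untreated cultures 15 members were called (41.7%, against 36.8% of all tested genes), 6 of them higher and 9 lower, where 18% of all tested genes were higher and 18.8% lower. CuSO4 against untreated cultures gave 12 calls (33.3%, against 34.6%), 4 higher and 8 lower (18% and 16.6% of all tested genes). For ZnSO4 against untreated cultures there were 11 (30.6%, against 16.6%), 3 higher and 8 lower (8.79% and 7.76% of all tested genes). When CuSO4 was added to the statin, 6 members were called (16.7%, against 16.7%), 2 higher and 4 lower (9.44% and 7.31% of all tested genes).

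Adding ZnSO4 to the statin gave 15 calls (41.7%, against 22%), 2 higher and 13 lower (11.7% and 10.3% of all tested genes). The statin gave 17 calls in the presence of CuSO4 (47.2%, against 44.3%), 5 higher and 12 lower (21% and 23.3% of all tested genes), and 11 in the presence of ZnSO4 (30.6%, against 28.6%), 1 higher and 10 lower (14.4% and 14.2% of all tested genes). For the interaction of statin with CuSO4, 9 members were called (25%, against 18.4%), 6 higher and 3 lower (8.13% and 10.3% of all tested genes). The median change of the 36 members lay between -0.23 and 0.02 over these 7 comparisons, and that of all tested genes between -0.04 and 0.01. With median centring of the arrays in place of loess normalization, the members' median in statin with CuSO4 against CuSO4 was -0.51 (5 called higher and 17 lower), against 0.01 for all tested genes. In that setting 2391 of the 5606 tested genes were called. Comparisons that name the same group share its samples, so they are not independent of each other. The samples of both groups did not overlap for 22 members in statin against untreated (51.7% of all tested genes did not), 19 in CuSO4 against untreated (49.5%), 17 in ZnSO4 against untreated (36.3%) and 6 in statin with CuSO4 against statin (28.8%). The same held for 21 members in statin with ZnSO4 against statin (49.5%), 16 in statin with CuSO4 against CuSO4 (49.5%) and 22 in statin with ZnSO4 against ZnSO4 (54.8%).

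The numbers of members called higher and lower depended in part on the dye normalization, although no call turned its direction. With each array centred on its median in place of the loess curve, the split became 3 higher and 11 lower for statin against untreated, 8 higher and 5 lower for CuSO4 against untreated, 1 higher and 7 lower for ZnSO4 against untreated, 2 higher and 2 lower for statin with CuSO4 against statin, and 3 higher and 5 lower for the interaction of statin with CuSO4. The processed signals of the scanner program gave 2 higher and 2 lower for statin with CuSO4 against statin and 3 higher and 3 lower for that interaction. Over all 5606 tested genes, median centring gave 1912, 1838, 924, 867 and 981 calls in the order listed. The loess curve gave 2065, 1939, 928, 939 and 1034. With the processed signals there were 885 calls for statin with CuSO4 against statin and 958 for the interaction. Within statin with CuSO4 against CuSO4, median centring moved called changes by over 1.5 times, to -1.44 for FBA1, -1.22 for TPI1, -1.14 for CDC19, -0.72 for PFK2, -0.70 for PGI1 and 0.45 for GLK1, with the call kept in each. Every one of the called members, in each of the 7 comparisons, differed in the same direction within each scan that held both groups. The scans are the same replicates from which the calls were made, so this is no separate support for the calls.

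**Figure D2:**
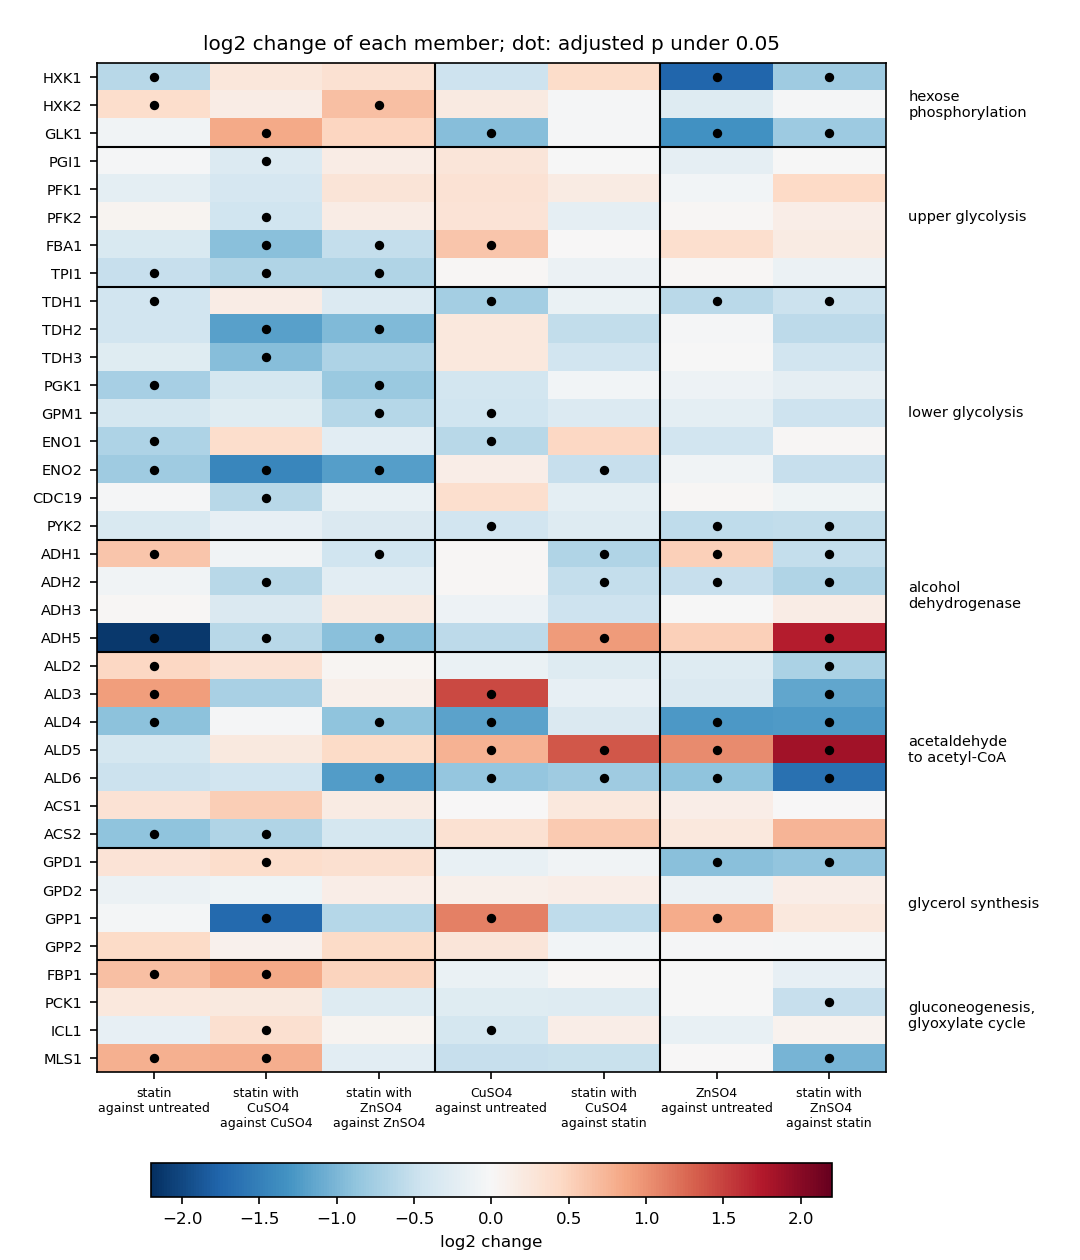
Rows are the 36 members, columns the 7 comparisons between groups, and colour is the log2 change, with a dot where the adjusted p was under 0.05. The first 3 columns add the statin, the next 2 CuSO4 and the last 2 ZnSO4; the ALD5 and ALD6 rows take opposite colours in all 4 metal columns.

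The first step of glycolysis, phosphorylation of glucose, held the largest ZnSO4 effects within glycolysis. HXK1 (YFR053C), a hexokinase that glucose normally represses, had ratios of -1.39, -1.25 and -1.50 in ZnSO4 cultures, against 0.31, 0.33 and 0.44 in untreated cultures. The groups lay far apart, with a fall of 1.74 ± 0.22 on the log2 scale (a 3.33-fold lower level; limma, standard error, 3 samples each, adjusted p = 6.9e-05). GLK1 (YCL040W), the glucokinase, which is likewise raised when glucose is absent, had -1.21, -0.96 and -0.90 in ZnSO4 cultures, against 0.30, 0.25 and 0.40 in untreated cultures. Its change was -1.34 ± 0.19 (adjusted p = 0.00025). HXK2 (YGL253W), the main hexokinase of cells on glucose, showed -0.56, -0.56 and -0.14 in ZnSO4 cultures, against -0.15, -0.40 and 0.15 in untreated cultures, and its change of -0.29 was not called.

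With the statin present, ZnSO4 again went with lower HXK1 and GLK1. HXK1 had -1.08 and -1.0 in statin with ZnSO4, against -0.18, -0.37 and -0.21 in statin alone, a change of -0.78 ± 0.24 (adjusted p = 0.0304). GLK1 changed by -0.79 ± 0.22 (adjusted p = 0.0162). Neither call held without every single sample: HXK1 was lost without statin with ZnSO4 replicate 2 (-0.74, adjusted p = 0.146) or 3 (-0.82, adjusted p = 0.119) and without statin replicate 1 or 3, and GLK1 without statin with ZnSO4 replicate 2 (-0.66, adjusted p = 0.14) or statin replicate 3 (-0.69, adjusted p = 0.0603). HXK2 stood at 0.32 and 0.16 in statin with ZnSO4, against 0.06, 0.37 and 0.35 in statin alone, so the groups overlapped.

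Copper moved the glucokinase but not the hexokinases past the threshold. HXK1, at -0.11, -0.15 and -0.02 in CuSO4 cultures, also lay below every untreated value, while HXK2 overlapped with its untreated values. GLK1 was at -0.84, -0.73 and -0.26 in CuSO4 cultures, below all 3 untreated values, a change of -0.93 ± 0.19 (adjusted p = 0.00166). In cultures that also held the statin the same change was -0.03, and the interaction of statin with CuSO4 for GLK1 was 0.90 ± 0.27 (adjusted p = 0.0307). The statin raised GLK1 in the presence of CuSO4 by 0.83 ± 0.19 (adjusted p = 0.00306), though the groups overlapped at replicate 2 of statin with CuSO4 (-0.28). HXK1 in that group was at 0.67, -0.59 and 0.39, the widest spread of this gene in any group. Without replicate 2, HXK1 was called higher in statin with CuSO4 than in statin alone (0.78, adjusted p = 0.000159) and than in CuSO4 alone (0.62, adjusted p = 0.000401), which it was not with all samples (0.41, adjusted p = 0.235, and 0.25, adjusted p = 0.368). The GLK1 interaction itself was lost when any of 8 of the 12 samples was left out (0.73 to 0.91 on those occasions).

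The statin alone had small effects on this step. HXK1 was at -0.18, -0.37 and -0.21 in statin cultures, under the untreated values of 0.31, 0.33 and 0.44, a change of -0.62 ± 0.22 (adjusted p = 0.0358) that was lost when any of the 6 samples was left out (-0.56 to -0.65, adjusted p up to 0.1). HXK2 changed by 0.39 ± 0.14 in statin against untreated cultures (adjusted p = 0.0435), with overlapping groups, and this was lost without any of 4 of the 6 samples (0.26 to 0.38) and with median centring (0.21, adjusted p = 0.334). In statin with ZnSO4 against ZnSO4, HXK2 changed by 0.66 ± 0.16 (adjusted p = 0.00723), which did not hold without statin with ZnSO4 replicate 2 (0.58, adjusted p = 0.0646).

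Of the 5 genes of upper glycolysis, from glucose 6-phosphate to triose phosphates, those of aldolase and triose phosphate isomerase changed most. In statin with CuSO4 against CuSO4, 4 of the 5 were called lower and 0 higher (23.3% and 21% of all tested genes). FBA1 (YKL060C), the aldolase that splits fructose bisphosphate, had -0.62, -0.54 and -0.79 in statin with CuSO4, against 0.64, 0.15 and 0.03 in CuSO4 alone. All statin samples lay below, and the change was -0.92 ± 0.15 (adjusted p = 0.00029). FBA1 was called higher in CuSO4 than in untreated cultures (0.60 ± 0.15, adjusted p = 0.00633) and lower in statin with ZnSO4 than in ZnSO4 (-0.52 ± 0.17, adjusted p = 0.0346). The last of these was lost without either sample of statin with ZnSO4 (-0.50 and -0.53) or without ZnSO4 replicate 1 or 2 (-0.42 and -0.55).

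TPI1 (YDR050C), the triose phosphate isomerase, was lower wherever the statin was added. It had -0.63, -0.75 and -1.16 in statin with CuSO4, against 0.16, -0.36 and -0.35 in CuSO4 (-0.67 ± 0.18, adjusted p = 0.0068), and it changed by -0.66 ± 0.20 in statin with ZnSO4 against ZnSO4 (adjusted p = 0.0222) and by -0.50 ± 0.18 in statin against untreated cultures (adjusted p = 0.0342). The call with ZnSO4 was lost without statin with ZnSO4 replicate 3 (-0.45, adjusted p = 0.24) or ZnSO4 replicate 1 (-0.54, adjusted p = 0.0859), and that against untreated cultures without statin replicate 2 or 3 or untreated replicate 1 or 3 (-0.44 to -0.48). In the main fit, PGI1, the phosphoglucose isomerase, and PFK2, a subunit of phosphofructokinase, were called only in statin with CuSO4 against CuSO4. Their changes were -0.30 (limma adjusted p = 0.0366) and -0.43 (limma adjusted p = 0.0251). Each call was lost on leaving out any of 4 of the 6 samples (-0.24 to -0.32 and -0.35 to -0.43). PFK1, the other phosphofructokinase subunit, was called in no comparison of the main fit. Its changes ran from -0.37 in statin with CuSO4 against CuSO4 to 0.44 in statin with ZnSO4 against statin. Without replicate 2 of statin with CuSO4, PFK1 was called lower than in CuSO4 alone (-0.41, limma adjusted p = 0.0483). With the replicate number as a block it was also called lower there (-0.365, limma adjusted p = 0.0296).

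Lower glycolysis, the 9 genes from glyceraldehyde 3-phosphate to pyruvate, held no member that was called higher in any of the 7 comparisons of the main fit. With the replicate number as a block, CDC19 was called higher in CuSO4 against untreated (0.37, limma adjusted p = 0.0306). With the statin added, 4 of the 9 were called lower against untreated (18.8% of all tested genes were), 4 in CuSO4 (23.3%) and 4 in ZnSO4 (14.2%). With a metal added, 4 were called lower in CuSO4 against untreated (16.6%), 2 in ZnSO4 against untreated (7.76%), 1 in statin with CuSO4 against statin (7.31%) and 2 in statin with ZnSO4 against statin (10.3%). The median change of the 9 genes with the statin was -0.42 against untreated, -0.39 in CuSO4 and -0.62 in ZnSO4, and stayed below 0 under median centring (-0.625, -0.954 and -0.806) and with the processed signals (-0.45, -0.399 and -0.594). In CuSO4 against untreated their median was -0.409, and -0.142 under median centring.

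ENO2 (YHR174W), the enolase made most on glucose, responded to the statin in each setting. It had -1.38, -0.71 and -1.22 in statin with CuSO4, against 0.36, 0.29 and 0.35 in CuSO4, and changed by -1.43 ± 0.16 (2.7-fold lower, adjusted p = 1.3e-05). In statin with ZnSO4 it had -1.06 and -1.12, against 0.01, -0.04 and 0.38 in ZnSO4 (-1.21 ± 0.18, adjusted p = 0.00026). In statin cultures it had -0.48, -0.59 and -0.70, against 0.14, -0.06 and 0.47 in untreated cultures (-0.78 ± 0.16, adjusted p = 0.00187). No sample with statin reached a sample without it. The call against untreated cultures was lost when all samples of replicate number 3 were left out (-0.58, adjusted p = 0.0747), and the 2 others held in every alternative tried. ENO2 was also called lower in statin with CuSO4 than in statin (-0.51, adjusted p = 0.0457), which was lost on leaving out any of 5 of the 6 samples (-0.37 to -0.57), and without the sixth, replicate 2 of statin with CuSO4, was -0.70 (adjusted p = 0.00391).

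ENO1 (YGR254W), the enolase less dependent on glucose, was called with the statin alone and with CuSO4 alone. It had -0.26, -0.53 and -0.59 in statin cultures, against 0.13, 0.06 and 0.46 in untreated cultures (-0.68 ± 0.23, adjusted p = 0.0301). In statin with CuSO4 it spread from -0.50 to 0.50, across the CuSO4 values of -0.36, -0.69 and -0.14, and was not called (0.39, adjusted p = 0.18). The interaction of statin with CuSO4 was 1.06 ± 0.32 (adjusted p = 0.031), and CuSO4 alone gave -0.61 ± 0.23 (adjusted p = 0.0481). The call with the statin was lost without any of 4 of 6 samples (-0.55 to -0.72), that with CuSO4 without any of 5 of 6 (-0.47 to -0.69) and with median centring (-0.35, adjusted p = 0.153), and the interaction without any of 7 of 12 (0.81 to 1.08). Without replicate 2 of statin with CuSO4, ENO1 was called higher than in CuSO4 alone (0.64, adjusted p = 0.0242) and than in statin alone (0.70, adjusted p = 0.0376).

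TDH1, TDH2 and TDH3 encode glyceraldehyde 3-phosphate dehydrogenase; TDH2 and TDH3 serve growing cells, and TDH1 is known from stationary phase and stress. TDH2 (YJR009C) had -0.61, -0.90 and -1.05 in statin with CuSO4, against 0.44, 0.02 and 0.58 in CuSO4 (-1.20 ± 0.29, 2.3-fold lower, adjusted p = 0.0042). TDH3 (YGR192C) had -0.60, -0.73 and -0.84, against 0.45, -0.12 and 0.30, and changed by -0.93 ± 0.26 (adjusted p = 0.01). In neither gene did the groups overlap. In untreated cultures both were spread widely (0.14, -0.55 and 0.73 for TDH2; 0.04, -0.68 and 0.55 for TDH3), and neither was called in statin against untreated. TDH2 was called lower in statin with ZnSO4 than in ZnSO4 (-0.97 ± 0.33, adjusted p = 0.0384), a call lost without statin with ZnSO4 replicate 2 or 3 (-0.91 and -1.04) or ZnSO4 replicate 1 or 3 (-0.91 and -0.81); TDH3 changed by -0.68 there and was not called. TDH2 and TDH3 in statin with CuSO4 against CuSO4 were also lost when all samples of replicate 3 were left out (-0.98, adjusted p = 0.0718, and -0.83, adjusted p = 0.0947), and TDH3 also without those of replicate 1 (-0.88, adjusted p = 0.101).

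TDH1 (YJL052W) was called lower with either metal and with the statin alone. It had -0.58, -0.51 and -0.21 in CuSO4 cultures, against 0.11, 0.41 and 0.41 in untreated cultures (-0.74 ± 0.14, adjusted p = 0.00062), and -0.39, -0.09 and -0.37 in ZnSO4 cultures (-0.59 ± 0.14, adjusted p = 0.00683). It was at -0.05, -0.23 and -0.06 in statin cultures, a change of -0.42 ± 0.14 (adjusted p = 0.0234) that was lost without statin replicate 2 or untreated replicate 2 or 3 (-0.36 to -0.38). With median centring the CuSO4 change was -0.48 and the statin change -0.64, both called. All 3 groups lay below every untreated value. In statin with CuSO4 against CuSO4 the TDH1 change was 0.17 and not called with loess normalization, but -0.39 and called with median centring (adjusted p = 0.0306), so its direction there depends on the scaling.

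PGK1 (YCR012W), the phosphoglycerate kinase, was lower with the statin, at -0.68, -0.86 and -0.62, than in untreated cultures, at 0.10, -0.18 and 0.14 (-0.73 ± 0.15, adjusted p = 0.00181). It was at -1.06 and -0.77 in statin with ZnSO4, against -0.03, -0.17 and -0.11 in ZnSO4 (-0.81 ± 0.17, adjusted p = 0.00325). In statin with CuSO4 against CuSO4 it changed by -0.39 and was not called. Both calls were lost when all samples of replicate 3 were left out (-0.72, adjusted p = 0.0573, and -0.96, adjusted p = 0.0705). GPM1, the phosphoglycerate mutase, was called lower in CuSO4 against untreated (-0.43) and in statin with ZnSO4 against ZnSO4 (-0.62), and each call was lost in 3 or 4 of the omissions of 1 sample (-0.33 to -0.47 and -0.57 to -0.66). With median centring the change in CuSO4 against untreated was -0.16 (adjusted p = 0.64).

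The 2 pyruvate kinases close the pathway. CDC19 (YAL038W), the main enzyme on glucose, was called once in the main fit, in statin with CuSO4 against CuSO4. It had -0.53, -0.16 and -0.23 with the statin, against 0.19, 0.18 and 0.56 in CuSO4 alone (-0.62 ± 0.16, limma adjusted p = 0.00617). PYK2 (YOR347C), the glucose-repressed enzyme, was called in the metal comparisons: -0.43 ± 0.13 in CuSO4 against untreated (adjusted p = 0.0228), -0.55 ± 0.13 in ZnSO4 against untreated (adjusted p = 0.00987) and -0.55 ± 0.15 in statin with ZnSO4 against statin (adjusted p = 0.0172). These were lost without any of 3 of 6 samples (-0.31 to -0.41), without untreated replicate 3 (-0.48, adjusted p = 0.0515), and without any of 3 of 5 samples (-0.49 to -0.59), in the order given.

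Among the alcohol dehydrogenases, ADH5 (YBR145W), a minor enzyme of ethanol formation, had the largest statin effect of the 36 members. It was at -1.86, -2.19 and -2.19 in statin cultures, against 0.03, 0.12 and -0.03 in untreated cultures. The fall of 2.12 ± 0.22 on the log2 scale, 4.34-fold (adjusted p = 3.3e-06), was the single member call in that comparison that held under every alternative tried. Adding a metal to the statin went with higher ADH5: -1.09, -0.76 and -1.59 in statin with CuSO4 (0.93 ± 0.22 above statin, adjusted p = 0.00767) and -0.29 and -0.42 in statin with ZnSO4 (1.72 ± 0.25 above statin, 3.3-fold, adjusted p = 0.00014). The call with CuSO4 was lost when all samples of replicate 1 (1.01, adjusted p = 0.0929) or 2 (0.69, adjusted p = 0.0828) were left out.

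ADH5 was then compared between cultures without statin. It had -0.54, -0.16 and -0.91 in CuSO4 cultures (-0.58 against untreated, adjusted p = 0.0539) and 0.65, 0.88 and 0.16 in ZnSO4 cultures (0.52, adjusted p = 0.127). The interaction of statin with CuSO4 was 1.51 ± 0.31 (adjusted p = 0.00304), with 1.34, 1.71 and 1.48 in the 3 scans. The interaction with ZnSO4 was 1.20 and not called (adjusted p = 0.114). In the presence of a metal the statin still gave lower ADH5, by 0.61 ± 0.22 in CuSO4 (adjusted p = 0.0356) and by 0.92 ± 0.25 in ZnSO4 (adjusted p = 0.0129). Both were lost on leaving out single samples: with CuSO4, statin with CuSO4 replicate 1 or 3 or CuSO4 replicate 1 or 2 (-0.39 to -0.64), and with ZnSO4, statin with ZnSO4 replicate 3 (-0.86, adjusted p = 0.0963) or ZnSO4 replicate 2 (-0.76, adjusted p = 0.0514).

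ADH1 (YOL086C), the main ethanol-forming enzyme and a zinc protein, took an opposite course in the statin comparison. It had 0.36, 0.16 and 0.28 in statin cultures and 0.25, 0.09 and 0.20 in ZnSO4 cultures, against -0.21, -0.42 and -0.41 in untreated cultures. The changes were 0.61 ± 0.11 (adjusted p = 0.00065) and 0.53 ± 0.11 (adjusted p = 0.00442). In cultures with both it was at -0.16 and -0.35, close to the untreated values, and the interaction of statin with ZnSO4 was -1.05 ± 0.17 (adjusted p = 0.00533), the 1 member among 58 genes called for that interaction (2.78% of members, against 1.03% of all tested genes). With CuSO4 and statin it was at -0.36, -0.28 and -0.56, lower than in statin alone by 0.67 ± 0.11 (adjusted p = 0.0006), and the interaction was -0.70 ± 0.16 (adjusted p = 0.00599).

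The ADH1 calls depended on the dye normalization more than those of ADH5. With median centring, ADH1 changed by 0.42 in statin against untreated (adjusted p = 0.113) and by 0.46 in ZnSO4 against untreated (adjusted p = 0.143), and the interaction with ZnSO4 was -1.05 (adjusted p = 0.14). That interaction was also lost without all samples of replicate 1 (-1.03, limma adjusted p = 0.116). The same held without statin with ZnSO4 replicate 3 (-0.95) or all samples of replicate 3 (-0.91), which left 1 sample in that group. The fall when CuSO4 was added to the statin held in every alternative.

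ADH2 (YMR303C), the glucose-repressed enzyme that oxidises ethanol, was dim, with both spots above background on 17 of 23 arrays. It was called lower in statin with CuSO4 against CuSO4 (-0.61 ± 0.16, adjusted p = 0.00595), in statin with CuSO4 against statin (-0.52), in statin with ZnSO4 against statin (-0.66) and in ZnSO4 against untreated (-0.50). The last 3 were lost on leaving out single samples, with values of -0.39 to -0.53, -0.43 to -0.53 and -0.43 to -0.56. With median centring the ZnSO4 change was -0.30 (adjusted p = 0.231), and with the processed signals that in statin with ZnSO4 against statin was -1.04. ADH3 (YMR083W), the mitochondrial enzyme, was called in no comparison; its ratios had a wide spread in CuSO4 cultures (-0.06, -0.19 and -1.04).

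**Figure D3:**
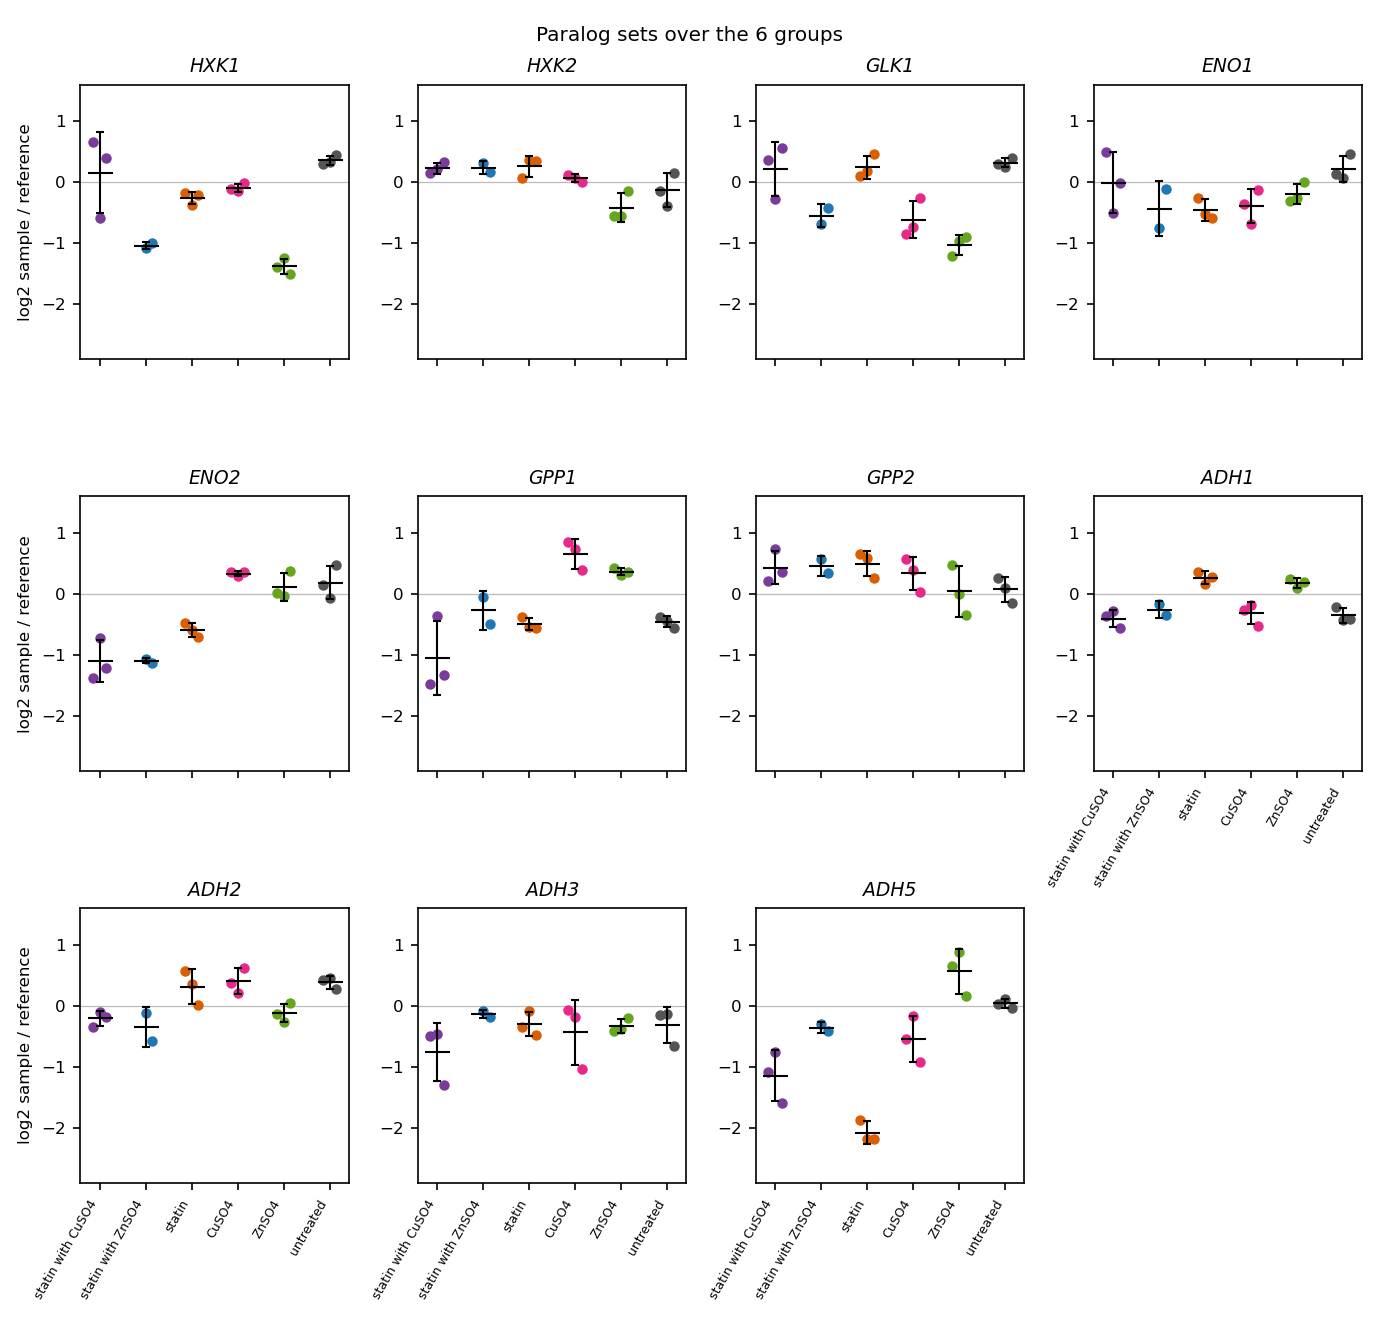
Points are biological samples, black marks the group mean with its SD, and the vertical axis is the log2 ratio over the pooled reference, for the hexokinases and glucokinase, the enolases, the glycerol 3-phosphatases and the alcohol dehydrogenases. ENO2 is lower in all 3 groups with statin, while ENO1 in statin with CuSO4 spreads from -0.50 to 0.50.

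At the step from acetaldehyde to acetyl-CoA, the metal effects went in opposite directions in different paralogs. ALD5 (YER073W), a minor mitochondrial aldehyde dehydrogenase, was higher with either metal. It had 0.56 and 0.78 in statin with ZnSO4 and 0.03, 0.37 and 0.14 in statin with CuSO4, against -1.44, -0.92 and -1.19 in statin alone. No sample with metal reached one without. The changes were 1.85 ± 0.22 (3.61-fold, adjusted p = 2.4e-05) with ZnSO4 and 1.36 ± 0.20 (2.57-fold, adjusted p = 0.00015) with CuSO4. Without statin it had 0.18, 0.59 and -0.04 in ZnSO4 and -0.12, 0.38 and -0.34 in CuSO4 cultures, against -0.90, -0.56 and -0.92 in untreated cultures. These changes were 1.04 ± 0.20 (adjusted p = 0.00201) and 0.76 ± 0.20 (adjusted p = 0.00721), the second of them lost when all samples of replicate number 1 were left out (0.76, adjusted p = 0.0706). Adding the statin gave -0.39 against untreated, 0.21 in CuSO4 and 0.42 in ZnSO4, none of them called.

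ALD4 (YOR374W), the major mitochondrial aldehyde dehydrogenase, was lower with either metal or the statin alone than in untreated cultures. Untreated samples stood at 0.67, 0.77 and 0.60, and no other sample was above 0.06. ALD4 had -0.48, -0.46 and -0.82 in ZnSO4 cultures (-1.26 ± 0.19 against untreated, adjusted p = 0.00037), -0.34, -0.81 and -0.36 in CuSO4 cultures (-1.18 ± 0.19, adjusted p = 0.00023) and 0.06, -0.34 and -0.38 in statin cultures (-0.90 ± 0.19, adjusted p = 0.00202). In statin with ZnSO4 it was at -1.40 and -1.52, lower than in statin alone by 1.24 ± 0.22 (adjusted p = 0.00076) and than in ZnSO4 alone by 0.88 ± 0.22 (adjusted p = 0.00784). With statin and CuSO4 it was at -0.12, -0.98 and -0.50, and neither the comparison with statin (-0.32) nor that with CuSO4 (-0.03) was called. The interaction with CuSO4 was 0.87 ± 0.27 (adjusted p = 0.0369), lost without any of 8 of the 12 samples (0.66 to 0.91), and that with ZnSO4 was 0.02. The calls for ZnSO4 and for statin against untreated, and both calls in statin with ZnSO4, were lost when all samples of replicate 3 were left out (-1.19, adjusted p = 0.0503; -0.86, adjusted p = 0.0647; -1.26, adjusted p = 0.0827; -0.93, adjusted p = 0.133), and the last also without statin with ZnSO4 replicate 3 alone (-0.81, adjusted p = 0.0737).

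ALD6 (YPL061W), the cytosolic enzyme that supplies most acetate for acetyl-CoA on glucose, was lower with either metal. It was at -0.50, -0.45 and -0.54 in ZnSO4 and -0.40, -0.35 and -0.63 in CuSO4 cultures, against 0.38, 0.44 and 0.36 in untreated cultures. The changes were -0.89 ± 0.24 (adjusted p = 0.0171) and -0.85 ± 0.24 (adjusted p = 0.0116). With the statin it was at -1.06 and -2.40 in statin with ZnSO4 and -0.56, -1.10 and -0.95 in statin with CuSO4, against 0.13, -0.20 and -0.19 in statin alone. The change was -1.65 ± 0.26 with ZnSO4 (3.13-fold lower, adjusted p = 0.00038) and -0.79 ± 0.24 with CuSO4 (adjusted p = 0.0321).

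The size of the ALD6 change with statin and ZnSO4 rested on 1 of the 2 samples. Without statin with ZnSO4 replicate 3 it was -0.98 against statin, with the call kept, and -0.57 against ZnSO4 (adjusted p = 0.0631), in place of -1.24 ± 0.26 (adjusted p = 0.00325). Without replicate 2 it was -2.31 and -1.90. The ALD6 call for ZnSO4 against untreated was lost without ZnSO4 replicate 1 or untreated replicate 1 or 2 (-0.86 to -0.89, adjusted p up to 0.0547), and that for statin with CuSO4 against statin without statin with CuSO4 replicate 2 or 3 or statin replicate 1 or 3 (-0.67 to -0.84). The call for CuSO4 against untreated was lost with median centring (-0.70, adjusted p = 0.054) and when all samples of replicate 1 were left out (-0.89, adjusted p = 0.0812).

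**Figure D4:**
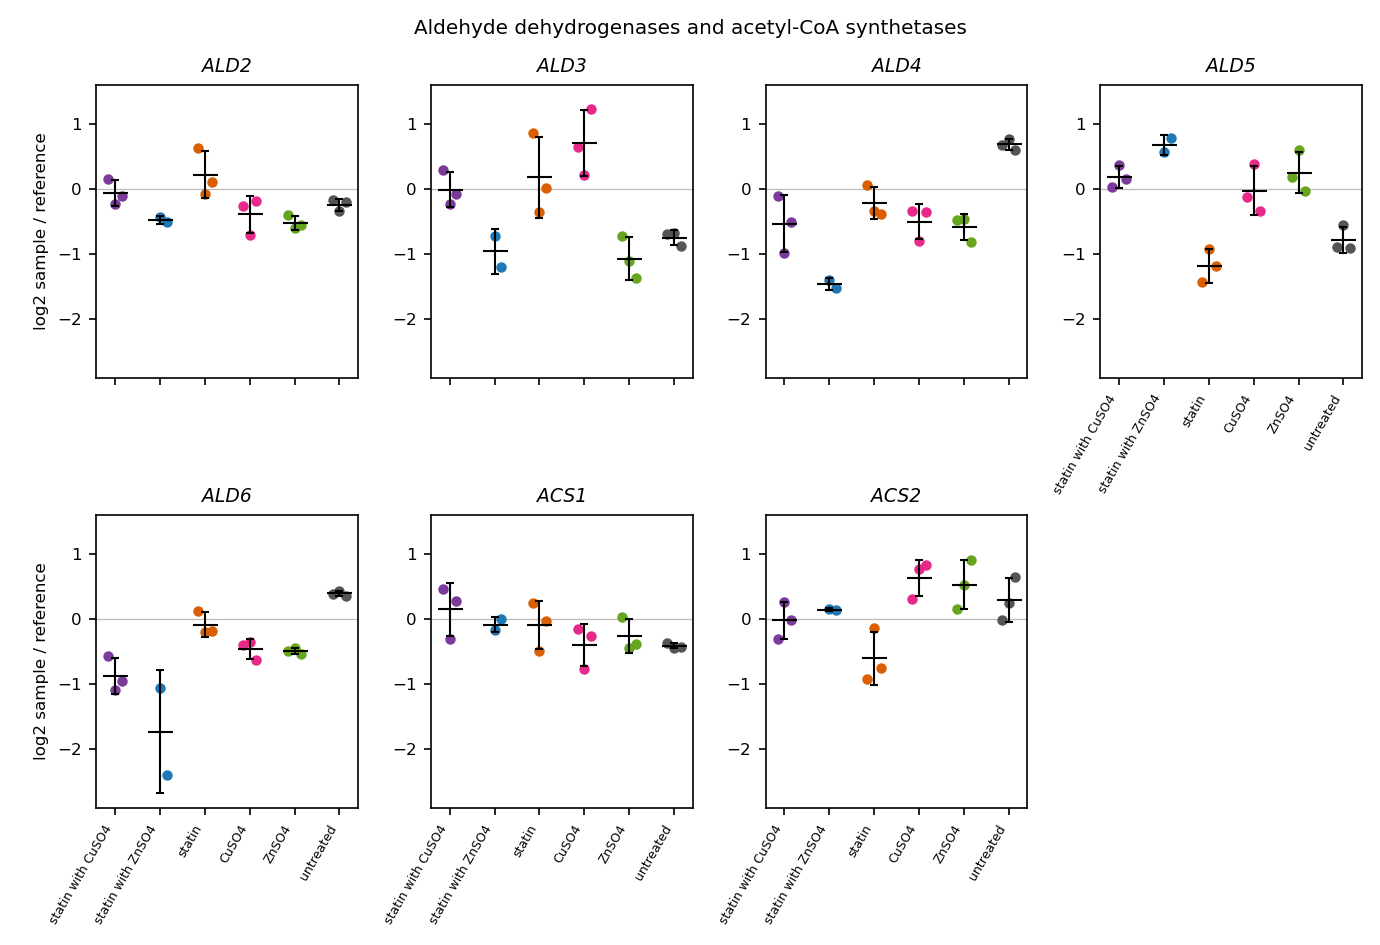
Points are biological samples, black marks the group mean with its SD, and the vertical axis is the log2 ratio over the pooled reference. ALD5 is higher and ALD6 lower in the groups with metal than in those without, and untreated samples have the highest ALD4.

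ALD2 and ALD3 are cytosolic enzymes known from stress. ALD3 (YMR169C) was higher in CuSO4 cultures, at 0.65, 0.22 and 1.23, than in untreated cultures, at -0.69, -0.67 and -0.88 (1.45 ± 0.29, 2.73-fold, adjusted p = 0.00125), a call lost when all samples of replicate 3 were left out (1.12, adjusted p = 0.0642). In statin cultures it was at 0.86, -0.35 and 0.02 (0.92 ± 0.29, adjusted p = 0.0208), and this was lost without statin replicate 1 (0.58, adjusted p = 0.11) or untreated replicate 3 (0.86, adjusted p = 0.067). With statin and CuSO4 it was at 0.29, -0.24 and -0.09, and the interaction was -1.63 ± 0.41 (adjusted p = 0.0105). The values in statin with ZnSO4 were -0.72 and -1.20, lower than in statin alone by 1.14 ± 0.32 (adjusted p = 0.0203), which was lost without statin with ZnSO4 replicate 3 (-0.90, adjusted p = 0.189) or statin replicate 1 (-0.79, adjusted p = 0.0854).

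ALD2 (YMR170C) was not called in CuSO4 against untreated (-0.15). It changed by 0.46 ± 0.17 in statin against untreated (adjusted p = 0.044) and by -0.69 ± 0.19 in statin with ZnSO4 against statin (adjusted p = 0.0165), and both were lost on leaving out single samples (0.26 to 0.52 without any of 5 of 6 samples, and -0.49 to -0.73 without any of 3 of 5).

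ACS2 (YLR153C), the acetyl-CoA synthetase made on glucose, was called lower with the statin against untreated cultures and in CuSO4, and not in ZnSO4 (-0.38, adjusted p = 0.291). It was at -0.92, -0.14 and -0.74 in statin cultures, against -0.02, 0.25 and 0.65 in untreated cultures (-0.89 ± 0.24, adjusted p = 0.00798). It had -0.31, 0.26 and -0.02 in statin with CuSO4, against 0.31, 0.76 and 0.82 in CuSO4 (-0.65 ± 0.24, adjusted p = 0.0348). The first call was lost when all samples of replicate 3 were left out (-0.64, adjusted p = 0.172) and the second without any of 4 of 6 single samples (-0.51 to -0.66). Adding a metal to the statin changed ACS2 by 0.58 with CuSO4 (adjusted p = 0.114) and 0.75 with ZnSO4 (adjusted p = 0.0556), not called. ACS1 (YAL054C), the glucose-repressed synthetase, was called in no comparison of the main fit, with changes from 0.00 to 0.55. The change of 0.55 was that in statin with CuSO4 against CuSO4 (adjusted p = 0.0537). Without replicate 2 of statin with CuSO4, at -0.30, ACS1 was called higher than in CuSO4 alone (0.77, limma adjusted p = 0.0074). With the replicate number as a block it was also called there (0.55, limma adjusted p = 0.00275).

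Glycerol synthesis drains dihydroxyacetone phosphate from glycolysis through glycerol 3-phosphate dehydrogenase and a phosphatase. GPD1 (YDL022W), the dehydrogenase induced by osmotic stress, was lower with ZnSO4. It had -0.80, -0.71 and -1.05 in ZnSO4 cultures, against 0.07, -0.08 and 0.22 in untreated cultures (-0.92 ± 0.13, adjusted p = 0.00016). It had -0.27 and -0.72 in statin with ZnSO4, against 0.46, 0.32 and 0.33 in statin alone (-0.87 ± 0.14, adjusted p = 0.00042). The groups were apart in both comparisons, and both calls held in every alternative. With CuSO4 the changes were -0.16 and -0.08, not called. In statin with CuSO4 against CuSO4 GPD1 changed by 0.38 (adjusted p = 0.0221), lost without any of 4 of 6 samples (0.35 to 0.38) and with median centring (0.15, adjusted p = 0.455). GPD2, its paralog linked to redox balance, was called nowhere, and its group means spanned 0.24.

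GPP1 (YIL053W), the glycerol 3-phosphatase of growing cells, was higher with CuSO4 alone and lower when the statin was added to it. It had 0.85, 0.74 and 0.39 in CuSO4 cultures, against -0.37, -0.44 and -0.55 in untreated cultures (1.11 ± 0.22, 2.16-fold, adjusted p = 0.00121). In statin with CuSO4 it had -1.48, -0.35 and -1.32, lower than in CuSO4 alone by 1.71 ± 0.22 (3.28-fold, adjusted p = 3.5e-05), and the interaction was -1.67 ± 0.31 (adjusted p = 0.00173). Replicate 2 of statin with CuSO4 lay well above the other pair, and without it the change against CuSO4 was -2.06, the interaction -2.02 and the change against statin -0.90 (adjusted p = 0.000514), where it had been -0.56 (adjusted p = 0.106). In statin against untreated cultures GPP1 changed by -0.04.

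With ZnSO4 alone GPP1 had 0.43, 0.31 and 0.35 (0.81 ± 0.22 against untreated, adjusted p = 0.0193), a call lost without ZnSO4 replicate 1 or untreated replicate 2 or 3 (0.77 to 0.82). GPP2 (YER062C), the phosphatase induced by osmotic stress, was called in no comparison of the main fit. Its changes with the statin were 0.42 against untreated, 0.10 in CuSO4 and 0.41 in ZnSO4. With the replicate number as a block, GPP2 was called higher with the statin against untreated (0.424, limma adjusted p = 0.0326). The same held in ZnSO4 (0.493, limma adjusted p = 0.0373).

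Among the genes of gluconeogenesis and the glyoxylate cycle, normally repressed by glucose, FBP1, PCK1 and MLS1 were measured at low signal. ICL1 was above background in both spots on all 23 arrays. FBP1 (YLR377C), fructose 1,6-bisphosphatase, was called higher in statin with CuSO4, at 0.39, 0.04 and 0.72, than in CuSO4, at -0.46, -0.43 and -0.46 (0.84 ± 0.18, adjusted p = 0.00206). In statin cultures it was at 0.80, 0.08 and 0.17, against -0.39, -0.08 and -0.46 in untreated cultures (0.66 ± 0.18, adjusted p = 0.0106), lost without statin replicate 1 (0.44, adjusted p = 0.0561). Both spots of FBP1 were above background on 18 of 23 arrays.

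MLS1 (YNL117W), malate synthase, was called higher with the statin, at 0.82, -0.01 and 0.35, against -0.43, -0.16 and -0.62 in untreated cultures (0.79 ± 0.25, adjusted p = 0.0218). It was called higher in statin with CuSO4 than in CuSO4 (0.80 ± 0.25, adjusted p = 0.0166) and lower in statin with ZnSO4 than in statin (-1.02 ± 0.28, adjusted p = 0.0162). Each was lost on leaving out single samples: for the first, statin replicate 1 or untreated replicate 1 or 3 (0.57 to 0.77), for the second, statin with CuSO4 replicate 1 or 3 or CuSO4 replicate 1 (0.63 to 0.76), and for the third, statin with ZnSO4 replicate 2 or statin replicate 1 (-0.81 and -0.80). Without replicate 2 of statin with CuSO4, at -0.80, the second was 1.15 (adjusted p = 0.000296). MLS1 was above background in both spots on 20 of 23 arrays.

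ICL1, isocitrate lyase, was called at -0.39 in CuSO4 against untreated and at 0.36 in statin with CuSO4 against CuSO4, with an interaction of 0.54 (adjusted p = 0.0467), and all 3 were lost on leaving out single samples (-0.36 to -0.38, 0.26 to 0.34 and 0.43 to 0.58). PCK1, the phosphoenolpyruvate carboxykinase that starts gluconeogenesis, was called once, at -0.51 in statin with ZnSO4 against statin (adjusted p = 0.0315), lost without statin with ZnSO4 replicate 3 (-0.37, adjusted p = 0.265) or statin replicate 1 or 2 (-0.40 and -0.52).

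Paralogs of one step were then set against each other by their changes. For the statin, 8 pairs of samples of the same replicate number and metal were available, with and without statin. Samples were matched by replicate number here, although that number was not taken as a pairing in the main fit. The 22 pairs of paralogs were tested with an exact two-sided sign-flip permutation test, adjusted over the 22 (Benjamini-Hochberg). The smallest p the 256 arrangements allow is 0.00781. The difference passed for 8 paralog pairs, against 7 without matching by replicate number. ADH1 changed with the statin by a mean of 0.10 and ADH5 by -1.24, a difference of 1.34 (SD 1.18) in the same direction in 8 of 8 sample pairs (exact adjusted p = 0.0286). ADH3 (-0.07) differed from ADH5 by 1.17 (SD 0.92, 8 of 8, exact adjusted p = 0.0286). In both, the 3 sample pairs without metal gave larger differences than any pair with metal.

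ACS1 changed by 0.41 and ACS2 by -0.72, a difference of 1.13 (SD 0.47, 8 of 8). GPP1 changed by -0.81 and GPP2 by 0.35 (difference -1.16, SD 0.67, 8 of 8), GPD1 by 0.35 and GPD2 by -0.05 (0.41, SD 0.13, 8 of 8), and TDH2 by -0.84 and TDH3 by -0.61 (-0.22, SD 0.16, 8 of 8), each with an exact adjusted p of 0.0286. ENO1 (-0.18) and ENO2 (-1.14) differed by 0.96 (SD 0.92, 7 of 8), and HXK1 (-0.05) and GLK1 (0.38) by -0.43 (SD 0.31, 7 of 8), each with an exact adjusted p of 0.043. All these means pool sample pairs with and without metal. Against untreated cultures the statin changed ENO1 by -0.675, ENO2 by -0.778 and HXK1 by -0.615. In CuSO4, the group means of ENO1 were -0.008 with the statin and -0.395 without, and those of ENO2 -1.10 and 0.33. Without metal, the group means of GPP1 were -0.496 with the statin and -0.451 without. CDC19 and PYK2 changed by almost the same mean (-0.29 each, difference -0.004, SD 0.41, exact adjusted p = 0.938), and the phosphofructokinase subunits PFK1 and PFK2 differed by -0.06 (SD 0.29, exact adjusted p = 0.668). With median centring 0 pairs passed, while 10 had an unadjusted exact p under 0.05.

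**Figure D5:**
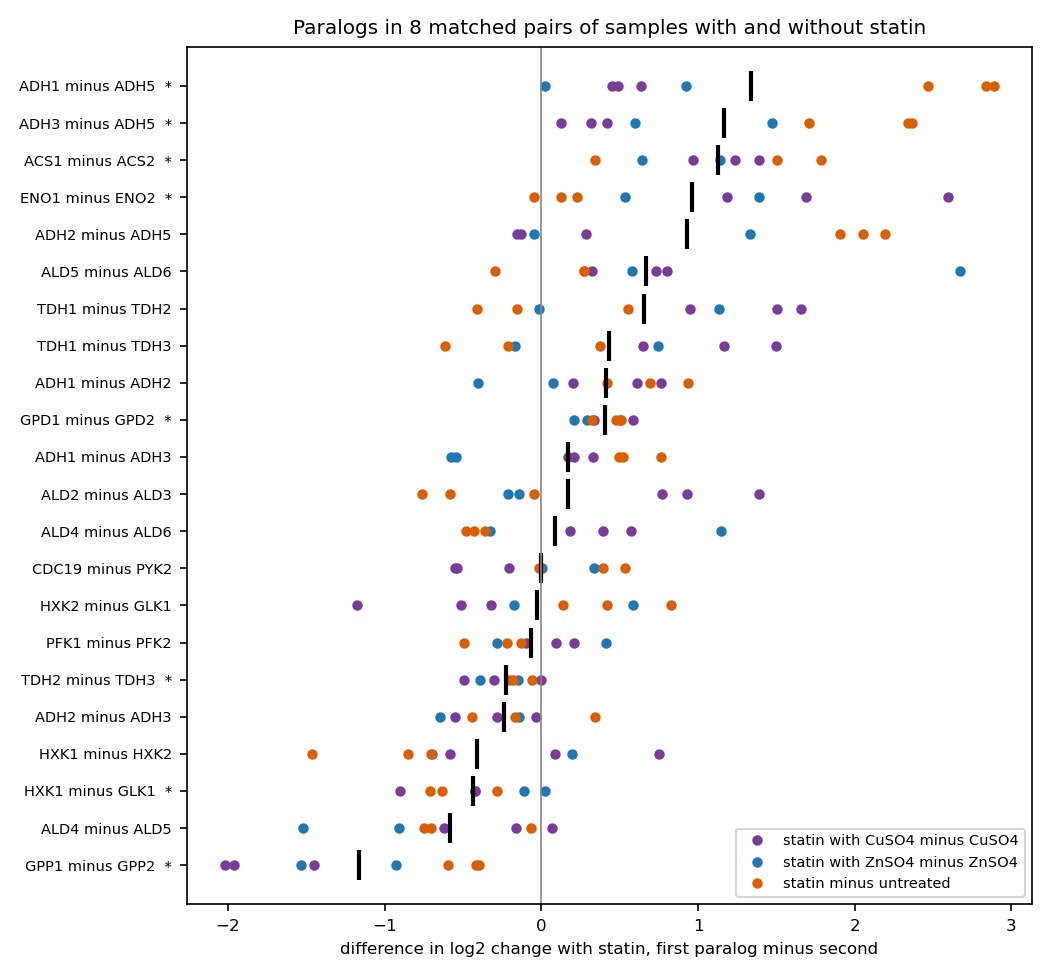
Each row is a pair of paralogs, each point 1 of the 8 matched sample pairs, and the horizontal axis the change with statin of the first paralog minus that of the second, on the log2 scale; the black bar is the mean and an asterisk marks an exact adjusted p under 0.05. For ENO1 minus ENO2 the mean was 0.96, and for GPP1 minus GPP2 it was -1.16 with all 8 points below 0.

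For the metals there were fewer matched pairs. Without matching by replicate number, 2 paralog pairs were called for CuSO4 and 9 for ZnSO4. With 6 pairs for CuSO4 the smallest possible p was 0.0312 and no paralog pair passed after adjustment, while 5 were at the unadjusted minimum. Among them were ALD4 against ALD5 (mean changes -0.75 and 1.06, difference -1.81, SD 0.39, 6 of 6) and ALD5 against ALD6 (1.06 and -0.82, difference 1.88, SD 0.30, 6 of 6), each with an exact adjusted p of 0.138. With 5 matched pairs for ZnSO4 the smallest possible p was 0.0625, so no call was possible with the matching. ALD4 and ALD5 changed by -1.20 and 1.31 (difference -2.51, SD 0.35), ALD5 and ALD6 by 1.31 and -1.15 (2.46, SD 0.98), and HXK2 and GLK1 by -0.22 and -1.15 (0.93, SD 0.17), each in the same direction in 5 of 5 pairs (exact p = 0.0625).

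Genes around the pathway, in 5 further lists, were counted with the same rule. Of 9 tested genes of glyoxylate, acetate and lactate metabolism, 2 were called higher and 3 lower in statin against untreated cultures, where 18% and 18.8% of all tested genes were. MDH2, the cytosolic malate dehydrogenase, changed by 1.18 ± 0.14 (adjusted p = 1.3e-05) and SFC1, the mitochondrial succinate-fumarate carrier, by 1.26 ± 0.18 (adjusted p = 7.6e-05). SFC1 was lower in statin with CuSO4 than in statin by 1.13 ± 0.18 (adjusted p = 0.00035) and in statin with ZnSO4 by 1.21 ± 0.20 (adjusted p = 0.00053). PYC1, a pyruvate carboxylase, and CIT2, the peroxisomal citrate synthase, were higher in statin with ZnSO4 than in statin, by 1.46 ± 0.17 (adjusted p = 2.2e-05) and 1.03 ± 0.16 (adjusted p = 0.00034).

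Of 7 tested regulators of glucose-repressed genes, 3 were called higher and 1 lower in statin against untreated cultures (18% and 18.8% of all tested genes). MIG2, a repressor that acts when glucose is present, was higher with the statin by 1.33 ± 0.11 against untreated (adjusted p = 3.2e-07), by 1.31 ± 0.11 in CuSO4 (adjusted p = 5.5e-07) and by 1.16 ± 0.12 in ZnSO4 (adjusted p = 8e-06). HAP4, an activator of respiratory genes, was higher in statin with CuSO4 than in statin by 1.27 ± 0.12 (adjusted p = 2.2e-06). All 4 tested members of the other alcohol dehydrogenases were called in CuSO4 against untreated, 3 higher and 1 lower (18% and 16.6% of all tested genes), with ADH4 at 1.62 ± 0.13 (adjusted p = 5.2e-07) and BDH1, butanediol dehydrogenase, at -1.12 ± 0.17 (adjusted p = 0.00015), and ADH4 was lower in statin with CuSO4 than in CuSO4 by 1.72 ± 0.13 (adjusted p = 2.1e-07).

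Of 7 genes for regulators of glycolysis and fructose 2,6-bisphosphate, 2 were called higher and 2 lower in statin with CuSO4 against CuSO4, near the 21% and 23.3% of all tested genes. PFK26, which makes fructose 2,6-bisphosphate, was among the higher, by 1.13 ± 0.18 (adjusted p = 0.00024). Of 6 tested genes for use and transport of glycerol, 0 were called higher and 3 lower in ZnSO4 against untreated cultures (limma; 8.79% and 7.76% of all tested genes), none with a change of 1 or more.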

How the data were processed

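RNA of 17 biological samples was measured on 23 two-colour Agilent arrays, with the sample in Cy3 and the pooled reference in Cy5 on each, per the labels; there was no dye swap. Per the submitters' processing notes, the authors read the scans with version 10.5.1.1 of Agilent's Feature Extraction program. The files hold intensity per spot and channel and a log10 ratio of red over green, per the file headers. The deposited value table holds the same log10 ratio with its sign turned, within 5e-06, with column medians of 0 to 0.00683.

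Median intensities were corrected with normexp (offset 50) and normalized by loess within each array. Outlier spots were set to missing. Each ratio was expressed as log2 of sample over reference, and spots and then duplicate arrays of a sample (6 samples) were averaged. Genes with both spots well above background on every array of at least 1 group were tested (5606 of 6256). Arrays correlated down to r = -0.558; since the labels name the dye of each channel, no direction was changed. One limma model (version 3.58.1, under R 4.3.3) held all 6 groups, with Benjamini-Hochberg adjustment over the 5606 genes and a threshold of 0.05, two-sided. A value after ± is a standard error of this fit. Members described as called or not called are so by this fit, unless another setting is named. The p-values measure the spread between biological replicates.

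The members and lists were chosen with earlier results of these data known. All members could be named; full statistics were required for called changes of at least 1 on the log2 scale, and list genes were named only from that size. A planned search for motifs in promoters was not done, since no promoter sequences were used here. Names were matched to the R64 table (5756 of 6256 probes). Samples of one replicate number were scanned together. Same-number samples of different groups had deviations from their group means that correlated at r = -0.0903 to 0.688 (40 pairs, median 0.311). For samples of different number and group, r was -0.688 to 0.422 (80 pairs, median -0.149). Because the lowest same-number value was below 0, the number was not taken as a pairing in the main fit. An effect shared by samples of one number is not removed from that fit. Alternatives were other background and dye normalizations, other filters, the replicate number as a block, fits of only the groups compared, single arrays and omitted samples. The fits were tested on simulated data. The number of arrays limits the precision.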

Additional observations from a re-analysis of the deposited data

Results flagged for a closer look

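The effect of CuSO4 differed with and without the statin, by the interaction term of the limma fit, for 9 of the 36 members. That was 25%, against 18.4% of all tested genes, with 6 higher and 3 lower. Median centring gave 3 higher and 5 lower (981 of 5606 tested genes called). The processed signals gave 3 higher and 3 lower (958 of 5606). The interaction, the CuSO4 effect in statin cultures minus that in cultures without, was 1.51 for ADH5, 1.06 for ENO1, 0.90 for GLK1, 0.87 for ALD4, 0.59 for TDH1 and 0.54 for ICL1, and it was -1.67 for GPP1, -1.63 for ALD3 and -0.70 for ADH1. Those of ADH5, GPP1, ALD3 and ADH1 held without any single sample, but all 4 were lost when all samples of replicate 1 were left out (1.59, -1.34, -1.49 and -0.71, limma adjusted p = 0.066 to 0.083), and GPP1, ALD3 and ADH1 also without those of replicate 3 (-1.65, -1.34 and -0.68). The 5 others were lost on some such omission, in 7 to 10 of the 12 cases, with a range of 0.81 to 1.31 for ENO1, 0.73 to 1.15 for GLK1, 0.66 to 1.09 for ALD4, 0.52 to 0.71 for TDH1 and 0.43 to 0.68 for ICL1 over all 12. With median centring the TDH1 interaction was 0.25 (adjusted p = 0.439). Without replicate 2 of statin with CuSO4, the sample that stood apart in its group, 12 members were called in place of 9. The gained calls were HXK1 (1.235, limma adjusted p = 3.68e-05), ENO2 (-0.851, adjusted p = 0.00562) and PGK1 (0.543, adjusted p = 0.0367). Calls over all 5606 tested genes rose as well on leaving out that sample, from 1034 to 1387.

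The effect of ZnSO4 differed with and without the statin for ADH1, with an interaction of -1.05. It was lost with median centring (-1.05, limma adjusted p = 0.14) and when all samples of replicate 1 were left out (-1.03, adjusted p = 0.116). It was also lost without statin with ZnSO4 replicate 3 (-0.95) and without all samples of replicate 3 (-0.91), each of which left 1 sample in that group.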

How the results depend on the processing

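Of the 97 member calls over the 9 comparisons and interactions, 19 held under every alternative and 45 held when any single sample was left out. Over 1575 repeats of these calls, 1189 kept their side of the threshold, 386 did not and none turned its direction. Outside the calls, TDH1 in statin with CuSO4 against CuSO4 turned to -0.39 (adjusted p = 0.0306) with median centring. The replicate numbers did not meet the criterion for a pairing of samples. With the replicate number as a block, no call was lost, and 14 members were called for the interaction of statin with CuSO4 and 2 for that with ZnSO4. Over all 5606 tested genes the block gave 1461 and 103 calls for these interactions, from 1034 and 58. ADH5, not called in the main fit for either metal against untreated, was called with the block for CuSO4 (-0.58, adjusted p = 0.00968), for ZnSO4 (0.52, adjusted p = 0.0277) and for the ZnSO4 interaction (1.24, adjusted p = 0.0192). ACS1, ACS2, PFK1, GPP2, CDC19, FBA1, GPM1, PYK2 and ALD5 likewise gained calls with it. So did PGI1, PGK1, ALD2, ALD3, TDH3, GPP1, HXK1 and PFK2. Among these were PGK1 in statin with CuSO4 against CuSO4 (-0.389, limma adjusted p = 0.00509) and ALD5 in statin against untreated (-0.392, limma adjusted p = 0.0355). The interaction with ZnSO4 had 0 calls with median centring (limma, from 1) and 3 when only the groups compared were fitted. Over all tested genes it had 56 and 72 calls in these settings, from 58. Without matching by replicate number, 2 paralog pairs were called for CuSO4, 9 for ZnSO4 and 7 for the statin. With median centring 0 were called for the statin, in place of 8 (10 at an unadjusted exact p under 0.05).

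Leaving out samples gave 3 to 13 called members in statin against untreated, 6 to 12 in CuSO4 against untreated, 6 to 12 in ZnSO4 against untreated, 2 to 8 in statin with CuSO4 against statin, 4 to 15 in statin with ZnSO4 against statin, 6 to 20 in statin with CuSO4 against CuSO4, 3 to 11 in statin with ZnSO4 against ZnSO4, 0 to 12 for the interaction with CuSO4 and 0 to 4 for that with ZnSO4 (limma). A difference over the 6 groups was called for 20 to 31 members. Without any one replicate number, 0 paralog pairs were called for the statin, where the smallest possible p was 0.0312 to 0.0625. Where statin with ZnSO4 kept 1 sample, that sample was taken to vary like those of the other groups. Counts over all tested genes moved as well. In statin with CuSO4 against CuSO4, 1131 of 5606 genes were called where 6 members were, and 2769 where 20 were. Calls also lost without all samples of one replicate number were GLK1 (0.65), CDC19 (-0.56), ADH2 (-0.56), TPI1 (-0.59) and FBP1 (0.66) in statin with CuSO4 against CuSO4, FBA1 (0.59) in CuSO4 and TDH1 (-0.50) and ADH1 (0.49) in ZnSO4 against untreated. The cause of these changes was not tested. The dimmest members (ADH2, GPD2, FBP1, PCK1, MLS1) were not tested under the strictest filter.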
